A study of Mus musculus with 107 samples.

Results

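Mos encodes the kinase that switches on the MAP kinases ERK1 and ERK2 in vertebrate oocytes, and the data set measured what single mouse eggs contained when Mos was lost. The 14 eggs described here are those of the first batch, chosen by batch label and library name: 9 mos -/- eggs and 5 wildtype eggs, of 107 eggs in the series. Their counts per egg are far above those of the second batch, so that genes of low abundance could be read. All came from C57BL/6J females aged 2 to 3 months that had received 5 IU of pregnant mare serum gonadotropin 48 h before the oocytes were taken. Immature oocytes were held in 2.5 µM milrinone, which blocks maturation, then cultured without it, and the eggs were collected at 38 to 40 h after breakdown of the germinal vesicle. The mutant eggs are named M1 (4 eggs, numbers 6 to 9), M2 (2 eggs) and M3 (3 eggs), names that the labels do not define. A column of growths in the authors' egg table, likewise without a definition, reads 1 for the M1 and the wildtype eggs, 2 for the M2 eggs and 3 for the M3 eggs, so growths 2 and 3 hold mutant eggs alone in this batch. No label ties an egg to an animal or a culture or says how the mutant allele was made.

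A mouse egg does not transcribe. Its messenger RNA was stored during growth, and during maturation particular messengers are translated, lengthened or shortened at their poly(A) tails, or destroyed. In eggs, Mos raises the activity of MEK and ERK and so holds metaphase II until fertilisation; ERK also acts on the machinery that lengthens poly(A) tails. Smart-seq2 primes reverse transcription on the poly(A) tail of messengers from 1 cell and does not mark the strand, so a gene's count depends on its tail as well as its amount, and a higher or lower value need not be a changed number of molecules per egg.

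Total counts ran from 5477024 to 8480254 in mutant eggs (median 7031161) and from 2609358 to 9132471 in wildtype eggs (median 8144112). A count of 3 was worth 0.354 to 0.548 CPM (counts per 1000000 counts of the egg) in mutant eggs and 0.329 to 1.15 CPM in wildtype eggs, so genes of 1 CPM were within reach in all but the shallowest wildtype egg, egg 1. With every egg thinned to 2609358 counts, 11453 ± 397 genes were detected in mutant eggs (SD, n = 9) and 11025 ± 366 in wildtype eggs (SD, n = 5). All 9 mutant eggs correlated best with another mutant egg, and all 5 wildtype eggs with another wildtype egg. The deposited egg table places all 5 wildtype eggs with the mutant eggs M3 egg 1 and M1 egg 6 on a plate A and the other 7 mutant eggs on a plate B, so plate and genotype overlap in large part. The summed raw level of 30 oocyte identity genes was 9356 to 44576 CPM in mutant eggs and 15901 to 27921 CPM in wildtype eggs. The 28 granulosa and cumulus genes summed to 145.3 to 609 CPM in mutant eggs and 215 to 384 CPM in wildtype eggs. Of these genes, 21 had a count in some egg and 7, Foxl2 and Fshr among them, were at 0 in all 14 eggs. Serpine2 had the most counts of that list in both genotypes. Amh, another granulosa gene, reached 16.2 raw CPM in M3 egg 3 and 0.995 in M3 egg 1 and was at 0 in the other mutant and all wildtype eggs.

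Mos itself was read first. Among mutant libraries its counts were 110 in the library labelled M1 egg 6, then 23, 14 and 3 in M1 eggs 7 to 9, 2 and 12 in the M2 eggs, and 20, 2 and 8 in the M3 eggs. Wildtype eggs 1 to 5 held 16, 81, 88, 28 and 23 counts of Mos. As raw CPM these were 0.251 to 17.9 in mutant eggs (median 1.47) and 2.52 to 11.2 in wildtype eggs (median 6.13). The groups overlapped, and the highest value belonged to a library labelled mutant. The fold of the summed counts was -1.49 ± 0.89 (SE) on the log2 scale with an edgeR adjusted p of 0.57, and without the library labelled M1 egg 6 it was -2.32 (edgeR adjusted p = 0.14). Since the mutant allele may still be transcribed, Mos reads do not check a label. Other genes place that library differently. Of the 218 genes called when it was left out, it lay nearer the median of the other mutant eggs than the wildtype median for 156 (71.6%). The same count for M3 egg 1, the other mutant egg on plate A, was 20 of 20 genes called without it. Across the other mutant eggs with any gene called without them, the share was 83.9% to 100%, each over its own genes. The library labelled M1 egg 6 thus had the lowest share. It also had the lowest mean correlation with the other eggs, 0.8805.

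To ask how mutant eggs differed from wildtype eggs within this batch, counts were summed over the eggs of M1, M2, M3 and wildtype, and the 3 mutant sums were compared with the wildtype sum in edgeR. Of 12856 genes tested, 54 were called at an adjusted p under 0.05 (0.42%), of which 40 were higher (0.311%) and 14 lower (0.109%) in mutant eggs. Read egg by egg, 284 genes had all 9 mutant eggs above all 5 wildtype eggs (2.21% of those tested) and 0.887% had all 9 below, 398 genes in all (3.1%). Of the called genes, 37 had every mutant egg above, 7 had every mutant egg below, and 10 overlapped in some egg. The median log2 fold of all tested genes was 0.06. There is 1 wildtype sum, assumed to vary like the mutant sums, and those sums may share animals, so the p-values may be too small. No gene was called without M1 egg 7, without the M2 sum or with sums divided by plate, whereas 218 were called without M1 egg 6 and 150 without M3 egg 3. All 54 kept their sign in each of 29 alternative fits, including the one that used the plate A eggs alone, in which none of the 54 was called. For the 44 called genes whose eggs do not overlap, leaving out eggs could hardly change the sign. Kept signs are therefore not a check on the plate.

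**Figure D1:**
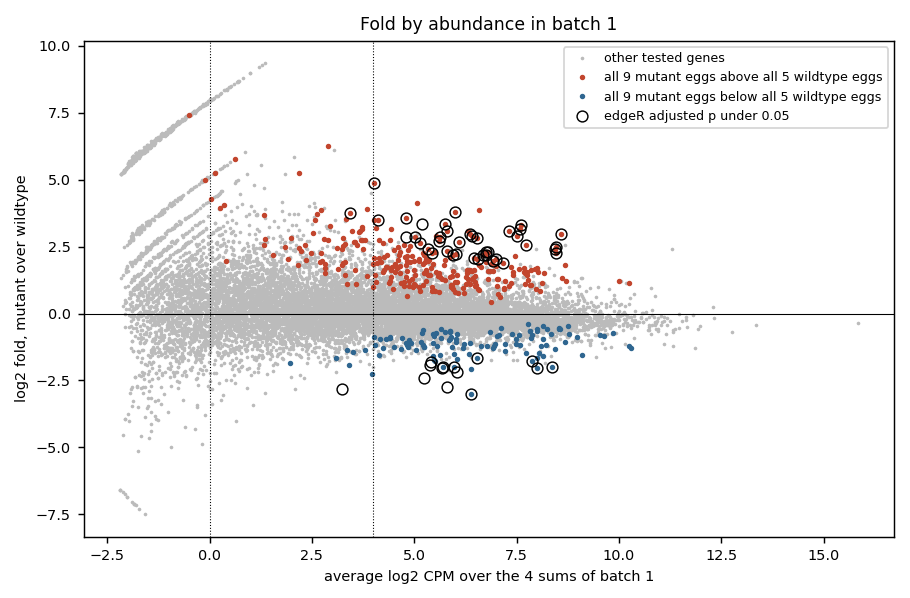
Log2 fold of mutant over wildtype (vertical axis) against average log2 CPM over the 4 sums (horizontal axis) for the 12856 genes tested in batch 1, with dotted lines at 0 and 4 log2 CPM. Genes whose eggs do not overlap are coloured and the 54 called genes are ringed; 52 of the 54 lie at or above 4 log2 CPM, and the diagonal streaks at low levels are genes with few or no wildtype counts, whose fitted folds depend on the prior count.

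The genes that rose most included several that bind or process RNA and a scaffold of signalling. Ccm2, a scaffold of the cerebral cavernous malformation complex that binds the kinase MEKK3 (chromosome 11, 6546887 to 6596744, GRCm38), held 11.6 to 33.05 CPM in mutant eggs (median 21.6). The wildtype eggs held 0, 1.91, 1.03, 0 and 0 CPM. It was at 0 in 3 of 5 wildtype eggs and above 11 CPM in every mutant egg, a log2 fold of 4.87 ± 0.65 (SE) (edgeR adjusted p = 0.0208). Lsm10, a subunit of the U7 particle that trims histone messengers, held 33.5 to 160.3 CPM in mutant eggs (median 88.4). Wildtype eggs 1 to 5 were at 5.88, 9.09, 6.20, 0.840 and 6.81 CPM. Mutant eggs were all above, by 3.78 ± 0.53 (SE) in log2 (edgeR adjusted p = 0.0226). Fxr2, an RNA-binding relative of the fragile X protein, held 12.3 to 35.9 CPM in mutant eggs (median 21.6). Values in wildtype eggs were 3.13, 1.32, 2.20, 1.96 and 1.98 CPM. The lowest mutant egg was above the highest wildtype egg, and the log2 fold was 3.48 ± 0.57 (SE) (edgeR adjusted p = 0.0388).

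Snrnp40, a protein of the U5 particle of the spliceosome, held 18.4 to 124.7 CPM in mutant eggs (median 57.5). Eggs 1 to 5 of the wildtype held 3.92, 8.61, 8.27, 2.10 and 8.17 CPM. Its log2 fold was 3.34 ± 0.46 (SE) (edgeR adjusted p = 0.0215), and M1 egg 7 was the mutant egg closest to the wildtype range. Pabpc1l, the poly(A)-binding protein of oocytes and early embryos, held 33.995 to 527 CPM in mutant eggs (median 214). In the wildtype eggs it stood at 28.98, 29.4, 20.3, 12.2 and 32.6 CPM. Here the gap between the groups was narrow, since M1 egg 7 lay just above wildtype egg 5, although the log2 fold was 3.33 ± 0.53 (SE) (edgeR adjusted p = 0.036). Paip2, a protein that binds poly(A)-binding protein and represses translation, held 28.6 to 156 CPM in mutant eggs (median 59.2). The wildtype eggs held 7.83, 8.01, 9.69, 10.1 and 5.08 CPM, a log2 fold of 3.10 ± 0.45 (SE) (edgeR adjusted p = 0.0228). In the eggs of the second batch the Paip2 fold was only 0.43 (edgeR adjusted p = 0.573).

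Lamtor1, which anchors the Ragulator complex to the lysosome, where mTORC1 is recruited and MEK and ERK are scaffolded, held 49.99 to 159.9 CPM in mutant eggs (median 106). Wildtype eggs 1 to 5 were at 5.48, 8.13, 20.03, 14.7 and 11.3 CPM. Mutant eggs lay well above in all cases, by 2.99 ± 0.39 (SE) in log2 (edgeR adjusted p = 0.0208); an exon of Lamtor1 overlaps Lrrc51 on the other strand, and reads of the pair cannot be told apart. Samd10 and Pwwp3a rose by 3.16 and 3.09 in log2 (edgeR adjusted p = 0.0208 for each). Their values were 118.3 to 462 CPM in mutant and 22.95 to 45.8 in wildtype eggs for Samd10, and 127.2 to 323 CPM in mutant and 7.83 to 31.5 in wildtype eggs for Pwwp3a, a PWWP domain protein of chromatin. Neither overlapped between genotypes.

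Fewer genes fell, and 7 met the rule for naming, which asked for a call, a fold of at least 2, eggs that do not overlap and the same sign on plate A. Zfp296, a zinc finger gene (chromosome 7, 19577287 to 19580656), held 10.7 to 82.2 CPM in mutant eggs (median 28.1). Values in wildtype eggs were 227, 193, 248, 229.5 and 275 CPM. The lowest wildtype egg was above the highest mutant egg, which was the library labelled M1 egg 6, and the log2 fold was -3.01 ± 0.37 (SE) (edgeR adjusted p = 0.0208). An exon of Zfp296 overlaps a gene on the other strand, so its reads cannot be told apart from that gene's. Lama5, the laminin alpha 5 chain of basement membranes (chromosome 2, 180176373 to 180225859), held 20.8 to 243 CPM in mutant eggs (median 166). Eggs 1 to 5 of the wildtype held 581, 334, 474, 900.4 and 611 CPM, a log2 fold of -2.02 ± 0.31 (SE) (edgeR adjusted p = 0.0338). M1 egg 9 was the lowest mutant egg for Lama5. Nprl2, a subunit of the GATOR1 complex that restrains mTORC1, held 14.6 to 57.9 CPM in mutant eggs (median 27.2). In the wildtype eggs it stood at 269, 93.6, 119, 107 and 95.9 CPM, with wildtype egg 1 above the rest and a log2 fold of -2.02 ± 0.34 (SE) (edgeR adjusted p = 0.042).

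Alg2, a mannosyltransferase that builds the precursor of N-glycans, held 14.5 to 66.4 CPM in mutant eggs (median 36.7). The wildtype eggs held 83.0, 139.4, 149, 151 and 137.6 CPM. Its log2 fold was -2.002 ± 0.28 (SE) (edgeR adjusted p = 0.0226), and wildtype egg 1 was the wildtype egg nearest the mutant range. Slc44a2, a choline transporter-like protein, held 94.9 to 289 CPM in mutant eggs (median 169). Wildtype eggs 1 to 5 were at 319.6, 868, 495, 482 and 1184 CPM, a log2 fold of -1.98 ± 0.26 (SE) (edgeR adjusted p = 0.0208). Ppa1, the inorganic pyrophosphatase of the cytosol, held 69.6 to 243 CPM in mutant eggs (median 131). Values in wildtype eggs were 338, 503, 504, 506 and 482 CPM, a log2 fold of -1.77 ± 0.29 (SE) (edgeR adjusted p = 0.0375). Smarcb1, a core subunit of the SWI/SNF remodelling complex, held 21.1 to 80.4 CPM in mutant eggs (median 59.1). Eggs 1 to 5 of the wildtype held 138.7, 166, 182, 187 and 223 CPM, a log2 fold of -1.67 ± 0.28 (SE) (edgeR adjusted p = 0.042). For these 4 genes the plate A eggs alone gave log2 folds of -1.55, -1.37, -1.76 and -1.92.

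**Figure D2:**
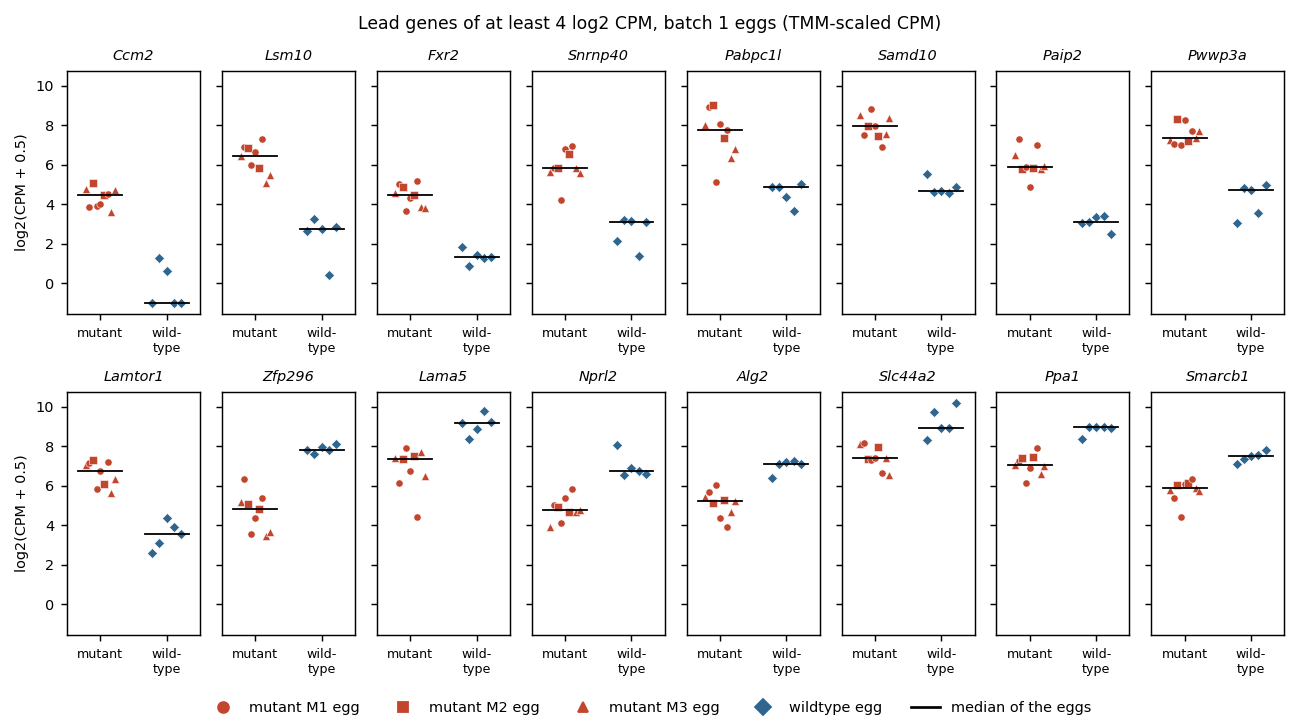
TMM-scaled log2(CPM + 0.5) (vertical axis) of 9 of the genes that rose most and the 7 that fell among genes of at least 4 log2 CPM. Each point is 1 egg, with the 9 mutant eggs left and the 5 wildtype eggs right, marker shape gives the M1, M2 or M3 name, and bars are medians; in every panel the genotypes do not overlap, and for Pabpc1l a single M1 egg lies next to the wildtype range.

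The other called genes, named outside that rule, fall among a few kinds of function. Genes of RNA processing that rose were Rbm17, a splicing factor (2.27 in log2), Sf3b5, a subunit of the U2 particle (2.87), Rrp8, a methyltransferase of ribosomal RNA (2.42), and Henmt1, which methylates the ends of piRNAs (2.26), with edgeR adjusted p from 0.0226 (Rbm17) to 0.0463 (Henmt1). Among genes of the ubiquitin and SUMO systems, Ube2a rose by 2.88, Ccnf by 2.82, Sumo3 by 2.42, Asb8 by 2.09 and Usp4 by 2.04, whereas Klhl21 had a log2 fold of -2.73, with edgeR adjusted p between 0.0208 (Ccnf) and 0.0462 (Asb8). Ccnf encodes cyclin F, the substrate receptor of an SCF ubiquitin ligase, and held 77.4 to 160.1 CPM in mutant and 10.6 to 26.2 in wildtype eggs. Chromatin genes that rose were Dnmt3l, the cofactor of the de novo DNA methyltransferases (185 to 319 CPM in mutant and 16.8 to 66.6 in wildtype eggs), Men1, the menin subunit of MLL complexes (46.01 to 98.9 CPM in mutant and 6.82 to 25.1 in wildtype eggs), and Glyr1, a nucleosome-binding protein (101.05 to 225 CPM in mutant and 32.4 to 52.5 in wildtype eggs). Their log2 folds were 2.88, 2.34 and 2.03 (edgeR adjusted p = 0.0208, 0.036 and 0.036), and Dnmt3l shares exon sequence with Aire on the other strand. Exons of Rrp8, Henmt1 and Klhl21, and of Mff and Nusap1 below, likewise overlap an annotated gene on the other strand.

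Genes of organelles and the cytoskeleton that rose included Mff, which recruits the fission machinery to mitochondria (299 to 697 CPM in mutant and 36.7 to 96.5 in wildtype eggs), Fech, the last enzyme of haem synthesis (27.2 to 74.4 CPM in mutant and 0.392 to 13.4 in wildtype eggs), Derl3, of the pathway that exports misfolded proteins from the endoplasmic reticulum (46.6 to 114.02 CPM in mutant and 11.3 to 27.8 in wildtype eggs), and Nusap1, a spindle protein (75.1 to 178 CPM in mutant and 23.1 to 30.1 in wildtype eggs). Their log2 folds were 2.97, 2.62, 2.24 and 2.19, with edgeR adjusted p from 0.0208 (Mff) to 0.0445 (Fech). Tubb2b, a beta-tubulin with a near-identical copy in Tubb2a that makes its counts uncertain, rose by 2.85 (edgeR adjusted p = 0.0308). Pebp1, an inhibitor of RAF known as RKIP, rose by 2.19 in log2 (74.9 to 174 CPM in mutant and 19.4 to 36.96 in wildtype eggs, edgeR adjusted p = 0.036). Called genes that fell but overlapped in at least 1 egg included Taldo1, transaldolase of the pentose phosphate pathway (5.35 to 72.03 CPM in mutant and 66.6 to 164 in wildtype eggs), Nlrp2, an oocyte NLR protein (4.30 to 39.7 CPM in mutant and 33.9 to 198 in wildtype eggs), and Slc12a7, a potassium chloride cotransporter (13.6 to 51.9 CPM in mutant and 46.2 to 138.7 in wildtype eggs). Their log2 folds were -2.05, -2.41 and -1.91, with edgeR adjusted p from 0.0226 (Nlrp2) to 0.0418 (Taldo1).

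In the kinase cascade below Mos, 26 of 26 genes were tested. Mapk3, which encodes ERK1 (chromosome 7, 126759601 to 126765819), and Lamtor1 rose, no member fell, and 24 were not called, beside 0.311% called higher and 0.109% lower over all tested genes. Mapk3 held 339.9 to 533 CPM in mutant eggs (median 456). In the wildtype eggs it stood at 83.8, 93.99, 114.1, 34.3 and 62.3 CPM and lay below every mutant egg, and the log2 fold was 2.48 ± 0.32 (SE) (edgeR adjusted p = 0.0208). The list's median log2 fold was 0.22, beside 0.06 over all tested genes. Of 30 immediate-early and serum response genes tested, which ERK switches on in transcribing cells, none was called, 0 were non-overlapping, and the median was 0.63. Egr1, the most abundant of them, held 50.4 to 1053 CPM in mutant and 154 to 580.3 in wildtype eggs. In the second batch Egr1 was called lower, with a log2 fold of -1.51 (edgeR adjusted p = 0.00759). The difference between the batches had an unadjusted p of 5.19e-04 and an edgeR adjusted p of 0.18. Nor was any gene called among 30 of the JNK and p38 kinases (median 0.23, Map3k4 most abundant), 38 of cAMP and PKA signalling (median 0.15) or 38 of PI3K, AKT and FOXO (median 0.12, Foxo3 most abundant). Adcy5, an adenylate cyclase, held 23.4 to 63.7 CPM in mutant and 4.95 to 15.96 in wildtype eggs without overlap (log2 fold 1.95, edgeR adjusted p = 0.0627). In WNT signalling 1 of 43 genes rose, Kremen1, a receptor for the inhibitor Dkk1 (18.3 to 134 CPM in mutant and 2.60 to 15.4 in wildtype eggs, log2 fold 2.70, edgeR adjusted p = 0.0418).

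Over all 32 lists, 1223 genes were tested. Of these 6 rose and 3 fell (0.736%, beside 0.42% of all tested genes), and 44 did not overlap between genotypes (3.60%, beside 3.1%). No called gene was found in 24 of the lists. Lysosome and autophagy genes had 6 of 65 members with every mutant egg above and 1 with every mutant egg below, and none was called (median log2 fold 0.09). Those above included M6pr, the receptor that sorts lysosomal enzymes (14.5 to 52.0 CPM in mutant and 1.12 to 6.22 in wildtype eggs, log2 fold 2.76, edgeR adjusted p = 0.0501), the proton pump subunit Atp6v1g1 (19.03 to 126 CPM in mutant and 4.46 to 12.9 in wildtype eggs, 2.91, edgeR adjusted p = 0.0627) and Uvrag, of the autophagy PI3 kinase complex (154 to 455 CPM in mutant and 49.4 to 144.1 in wildtype eggs, 1.45, edgeR adjusted p = 0.0816). Below was Mcoln1, a lysosomal calcium channel (43.8 to 74.7 CPM in mutant and 113.6 to 141.9 in wildtype eggs, -1.15, edgeR adjusted p = 0.118).

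In the list of the unfolded protein response, Derl3 was the 1 called gene of 44, while Calr and Nploc4 had every mutant egg above and Edem3 every mutant egg below (list median -0.13). Glycolysis and the pentose phosphate pathway had 1 called gene of 46, Taldo1, and members on both sides without a call, Tpi1 at 6.77 to 23.99 CPM in mutant and 0.743 to 5.17 in wildtype eggs and Eno1 at 10.99 to 36.02 CPM in mutant and 36.8 to 108.5 in wildtype eggs; both have processed copies in the genome, so their counts are uncertain. In cholesterol synthesis 0 of 33 were called, though Insig1, which retains the sterol sensor SCAP in the endoplasmic reticulum, held 217 to 516 CPM in mutant and 572 to 1295 in wildtype eggs (log2 fold -1.56, edgeR adjusted p = 0.0501). Among 78 cullin ligase genes 1 rose, Ccnf, and Fbxo34 and Cops4 had every mutant egg above without a call. Small RNA genes had 1 of 44 called, Henmt1, and Tdrd1, a tudor protein of the piRNA pathway, held 277 to 919 CPM in mutant and 118.3 to 152 in wildtype eggs (log2 fold 1.82, edgeR adjusted p = 0.0744). Of 42 remodeller genes only Smarcb1 was called, and of 44 adhesion genes only Lama5.

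None of 37 recombination genes was called. Without overlap, Rad51c held 13.3 to 77.1 CPM in mutant and 2.35 to 8.12 in wildtype eggs (log2 fold 2.37, edgeR adjusted p = 0.0615) and Msh4 held 33.8 to 107 CPM in mutant and 108.1 to 228 in wildtype eggs (-1.23, edgeR adjusted p = 0.14). No gene was called among 53 of the centrosome list, 81 of RNA polymerase II and Mediator, 61 of histone methylation, 49 of histone acetylation, 38 of RNA methylation, 39 of nonsense-mediated decay, 38 nuclear receptors and coregulators, 31 of TGF-beta and BMP signalling, 25 of Hippo, 54 ion channels, 35 apoptosis regulators or 33 imprinted genes. The medians of these lists ran from -0.24 (nonsense-mediated decay) to 0.10 (Hippo). Their most abundant members, among them Mapre1, Taf3, Kmt2d, Ep400, Ythdf3, Zcchc8, Ncoa3, Ski, Nf2, Slc39a10, Bcl2l10 and Nap1l4, had log2 folds from -0.50 (Ep400) to 0.30 (Ncoa3), and those of the lists for cAMP, autophagy, recombination and cholesterol were Marf1 at 0.02, Atg5 at -0.09, Brca2 at -0.26 and Scap at -0.91. Of 29 oocyte identity genes tested, none was called (median -0.45): H1f8, the oocyte linker histone, held 571 to 5323 CPM in mutant and 5143 to 8460 in wildtype eggs, and Gdf9, a growth factor of the oocyte, held 177 to 1543 CPM in mutant and 443 to 1997 in wildtype eggs.

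**Figure D3:**
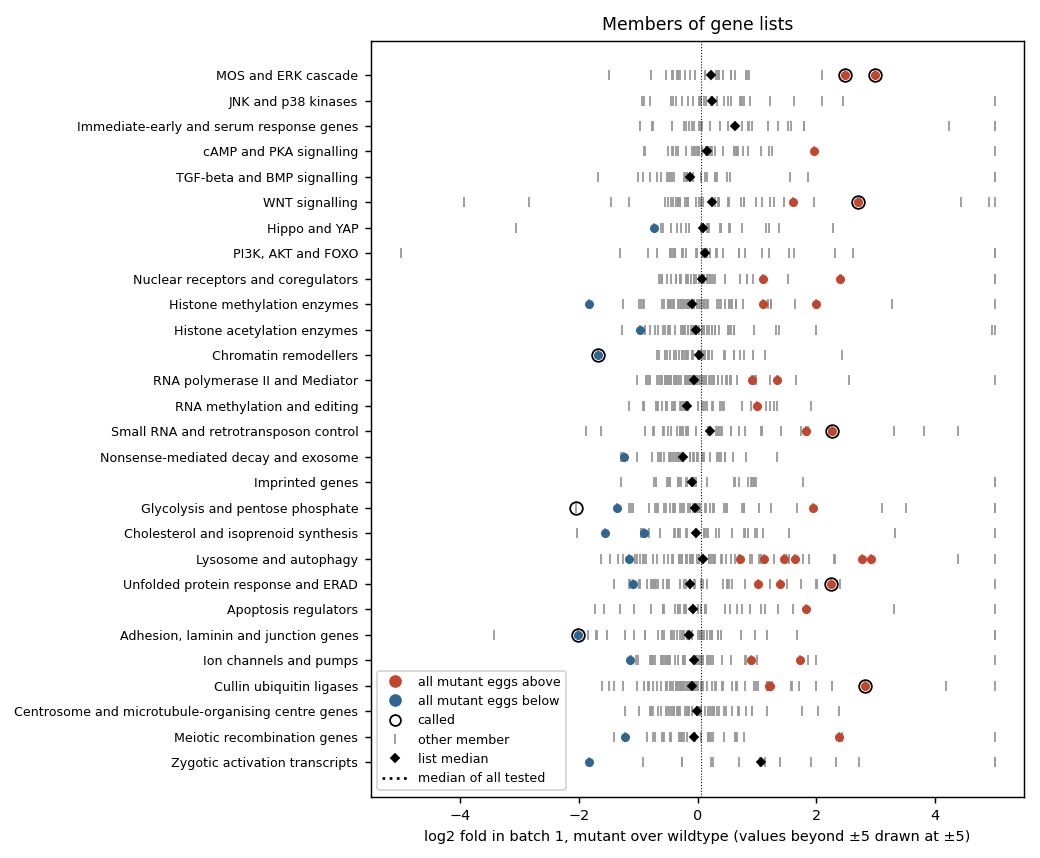
Log2 fold of mutant over wildtype in batch 1 (horizontal axis) for the tested members of 28 gene lists (rows). Coloured points are genes whose eggs do not overlap, rings are called genes, diamonds are list medians and the dotted line is the median of all tested genes, 0.06; most lists hold no ring and their medians lie near the dotted line.

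The depth of these eggs allowed genes of 0 to 4 log2 CPM, that is 1 to 16 CPM, to be compared egg by egg. For the 4871 tested genes in this range, the median count of a gene in an egg was 28 in mutant eggs (lowest to highest egg, 16 to 42) and 23 in wildtype eggs (9 to 30), and the median mutant egg detected 94.1% of the genes and the median wildtype egg 90%. In the second batch the median count was 2 in 52 mutant eggs and 0 in 24 wildtype eggs. There the median mutant egg detected 65.5% of the genes and the median wildtype egg 24.6%. In this range 65 genes had every mutant egg above every wildtype egg (1.33%) and 7 had every mutant egg below (0.144%), beside 3.69% above and 1.82% below among 5885 genes of at least 4 log2 CPM. A gene could pass the filter through mutant sums alone, and the average is over 3 mutant sums and 1 wildtype sum. Its place in this range thus follows its mutant level more than its wildtype level. The 65 and 7 are therefore not read as an imbalance. The test called 2 genes here, Zdhhc4, a palmitoyltransferase, and Gmeb2, a DNA-binding protein. Zdhhc4 held 8.87 to 26.8 CPM in mutant eggs (median 12.6). The wildtype eggs held 1.18, 0.478, 1.68, 1.96 and 0 CPM, a log2 fold of 3.76 ± 0.63 (SE) (edgeR adjusted p = 0.0418). An exon of Zdhhc4 overlaps a gene on the other strand. Gmeb2 held 0 to 7.51 CPM in mutant and 5.88 to 54.99 in wildtype eggs, with overlap between the genotypes (log2 fold -2.83, edgeR adjusted p = 0.0368).

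The low-abundance genes below were picked after their values were seen, by the size of the fold among genes whose eggs do not overlap, and none of them was called. Ndufa5, a subunit of respiratory complex I, held 1.80 to 25.8 CPM in mutant eggs (median 11.4). Wildtype eggs 1 to 5 were at 0, 0, 0, 0.560 and 0 CPM. It had 696 counts in the mutant eggs together and 4 in the wildtype eggs together, all 4 in 1 egg, and the fitted log2 fold was 6.27 ± 1.12 (SE) (edgeR adjusted p = 0.0501). Trappc2l, of the TRAPP complexes of vesicle transport, had 424 counts in mutant eggs and 5 in wildtype eggs, a ratio of summed raw CPM of 48.7 times (95% counting interval 20.7 to 151). Ndufa2, also of complex I, held 3.60 to 43.02 CPM in mutant and 0.743 to 2.20 in wildtype eggs, and Mcat, an enzyme of mitochondrial fatty acid synthesis, held 3.29 to 13.3 CPM in mutant and 0 to 1.68 in wildtype eggs. Pygl, the liver form of glycogen phosphorylase, held 3.90 to 12.9 CPM in mutant and 0.140 to 2.35 in wildtype eggs. Mutant eggs together held 128 counts of Mas1, a G-protein-coupled receptor, and 94 of Trpv2, a cation channel, and wildtype eggs 1 count of each. The ratios of summed raw CPM were 73.5 times (95% counting interval 12.97 to 2928) for Mas1 and 54.02 times (95% counting interval 9.46 to 2156) for Trpv2, intervals that cover counting error only. Ndufa2 and Mcat share exon sequence with a gene on the other strand.

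On the other side, 7 low-abundance genes had every mutant egg below every wildtype egg. They were Mrpl38, a mitochondrial ribosomal protein (3.91 to 26.98 CPM in mutant and 27.6 to 49.4 in wildtype eggs), Eif2b2, a subunit of the factor that recharges eIF2 (0.325 to 10.2 CPM in mutant and 15.6 to 39.03 in wildtype eggs), Prmt1, the main arginine methyltransferase (0.782 to 4.07 CPM in mutant and 4.20 to 10.7 in wildtype eggs), Polr1g, of RNA polymerase I (1.56 to 11.8 CPM in mutant and 14.2 to 19.07 in wildtype eggs), Pard6a, a polarity protein (3.47 to 12.7 CPM in mutant and 13.4 to 33.3 in wildtype eggs), Rad51ap2, expressed in meiotic cells (1.17 to 10.9 CPM in mutant and 14.1 to 21.5 in wildtype eggs), and Tram2, of the translocon (5.11 to 14.3 CPM in mutant and 16.8 to 28.98 in wildtype eggs). Their log2 folds ran from -1.35 (Tram2, edgeR adjusted p = 0.228) to -2.27 (Mrpl38, edgeR adjusted p = 0.0627). At 0 in all 5 wildtype eggs, but counted in at least 1 mutant egg, were 1948 genes, 104 of them in 5 or more mutant eggs. At 0 in all 9 mutant eggs, but counted in at least 1 wildtype egg, were 354 genes. Among the first set, the genes named next were counted in the most mutant eggs. Gal3st3, a sulfotransferase, was detected in 9 of 9 mutant eggs (54 counts) and 0 of 5 wildtype eggs, at least 10.3-fold higher against a floor of 3 counts over the wildtype eggs, and Ifitm10, Rilpl1, Foxc1, H2bc9 and 1 predicted gene were seen in 8 mutant eggs and no wildtype egg. In the second batch Gal3st3 had 32 counts in mutant eggs and 7 in wildtype eggs, a log2 fold of -0.78 (edgeR adjusted p = 0.785). Foxc1 had 2 counts in mutant eggs and 1 in wildtype eggs there, a log2 fold of -1.92 (edgeR adjusted p = 0.725), the opposite sign to the first batch for both genes. Ifitm10, Rilpl1, H2bc9 and the predicted gene kept their sign there, with 39, 46, 19 and 12 counts in mutant and 0 in wildtype eggs. None of these was called (edgeR adjusted p from 0.231 for Rilpl1 to 0.57 for the predicted gene). Mutant eggs of that batch held 33825734 counts together and wildtype eggs 5436993. No gene absent from all mutant eggs was seen in more than 3 wildtype eggs. The 2 directions are not comparable, since there were 9 mutant eggs with 63012066 counts and 5 wildtype eggs with 36209306. Duxf3, of the multicopy Dux family that marks genome activation, had 25, 21, 5 and 1 counts in M3 egg 1, M1 egg 9, M2 egg 1 and M1 egg 8, and 0 in the other mutant and all wildtype eggs. Of 17 zygotic activation transcripts tested, Duxf3 among them, none was called, 3 had an unadjusted p under 0.05, and only Prmt1 did not overlap. Their median log2 fold was 1.07 and 13 of the 17 lay above 0, beside 0.06 and 52.8% over all tested genes. In the second batch their median was 3.74 and 16 of the 17 had the same sign, beside 0.15 and 65.8% over genes with a value in both. The raw level summed over that list was 143.5 to 473 CPM in mutant eggs and 168 to 384 CPM in wildtype eggs, with medians of 249 in mutant and 293 CPM in wildtype eggs. Pramel13 had the most counts of that list in both genotypes.

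**Figure D4:**
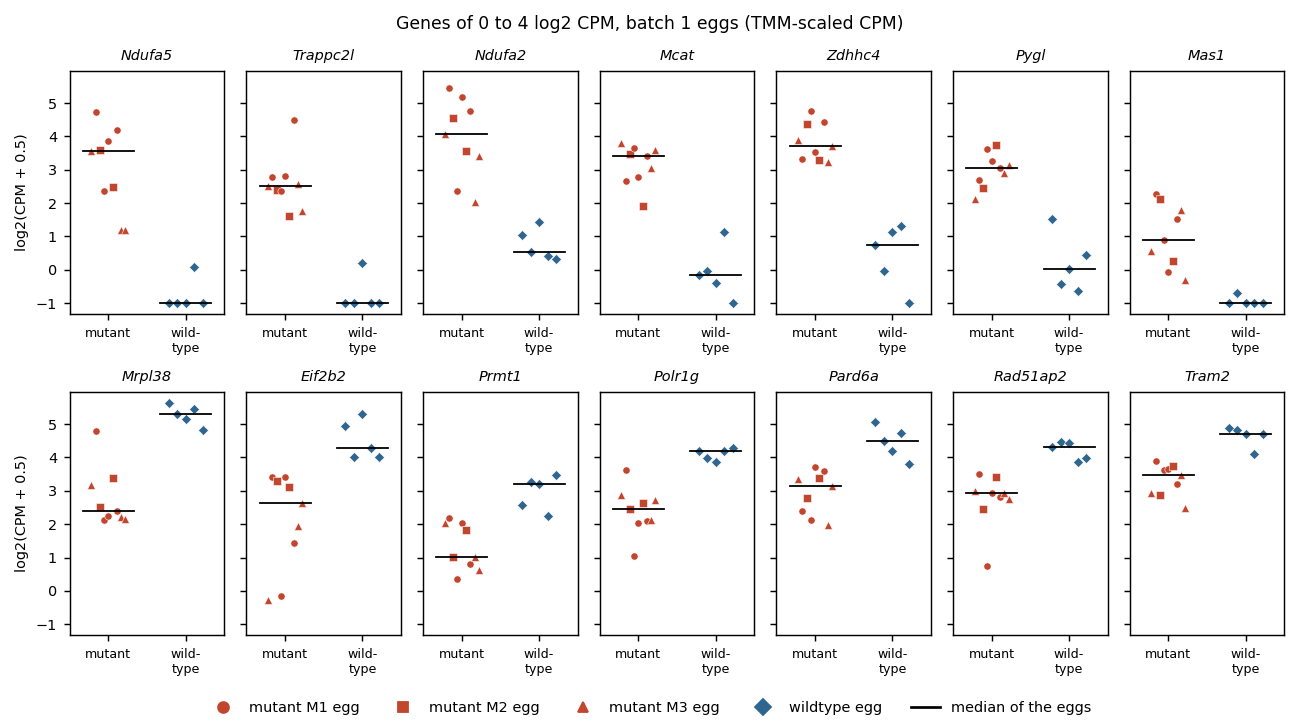
TMM-scaled log2(CPM + 0.5) (vertical axis) of 14 genes between 0 and 4 log2 CPM, with 7 higher in mutant eggs above and 7 lower below. Each point is 1 egg, mutant eggs left and wildtype eggs right, and bars are medians; a value of -1 is a count of 0, which most wildtype eggs have for Ndufa5, Trappc2l and Mas1.

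The second batch offers other eggs of both genotypes, 52 mutant and 24 unactivated wildtype, which entered neither the calls nor the egg-by-egg comparison above. By their library names, the mutant and wildtype eggs of that batch lay on different plates, so plate and genotype cannot be told apart there. Median total counts in that batch were 605366 in mutant and 207420 in wildtype eggs. The fold of the second batch called 566 of 13832 genes (4.09%), of which 311 were higher (2.25%) and 255 lower (1.84%) in mutant eggs. Of the 54 genes called in the first batch, 52 had the same sign in the second, and 31 were also called there in that direction, beside 65.8% and 4.19% of the 12617 genes with a value in both. Most of the 54 lie at or above 4 log2 CPM, where the shares were 70.2% and 7.48% of 5885 genes. Batch 2 folds came from a fit of 9 sums, 1 of which held 17 activated wildtype eggs of that batch. The 9 sums share 1 estimate of the spread, so calls in the 2 batches are not independent. None of the 54 was called in the opposite direction. Of the 284 genes with every mutant egg above, 257 had the same sign, and of those with every mutant egg below, 96.5% had it. Genes such as Dnmt3l (2.96 in log2, edgeR adjusted p = 0.0025), Mapk3 (1.998, 0.00534), Lamtor1 (2.503, 0.00542), Fxr2 (5.16, 0.00835), Lama5 (-1.90, 0.00846) and Zfp296 (-2.01, 0.00929) were called in both batches. Others had folds near 0 in the second batch, among them Zdhhc4 (0.07), Henmt1 (0.07), Thop1 (0.04), Tubb2b (-0.07) and Nlrp2 (0.23).

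The difference between the batches was tested in 1 fit of 9 sums, and no gene of 13832 was called by edgeR, with 1146 at an unadjusted p under 0.05 (8.29%), whereas DESeq2 called 0.788%. Called genes were picked for large folds in the first batch, so their smaller median fold in the second (1.30 in log2 for the 40 higher genes, against 2.68 in the first batch) is not read as a difference. The folds of both batches use different eggs. Across the 5885 genes of at least 4 log2 CPM the folds of the 2 batches correlated at r = 0.59, and across the 4871 genes of 0 to 4 log2 CPM at r = 0.337, over genes, which are not independent. Of the 65 low-abundance genes with every mutant egg above, 57 had the same sign in the second batch and 8 were called there, Trappc2l at 5.26 (edgeR adjusted p = 0.0335) and Pygl (edgeR adjusted p = 0.00967) among them, beside 62.6% and 1.83% of all tested genes in that range. Of the 7 with every mutant egg below, 6 had the same sign and none was called, with Rad51ap2 at -1.39 and Tram2 at 0.11.

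**Figure D5:**
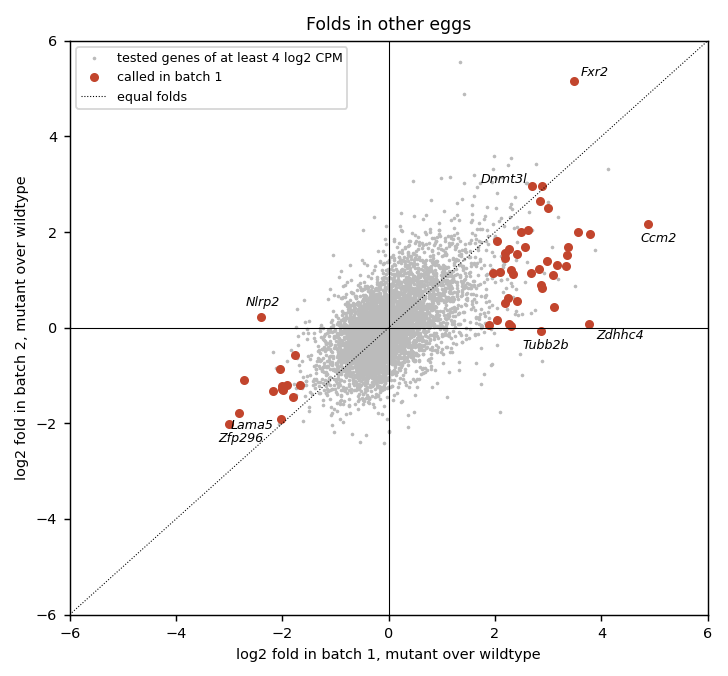
Log2 fold of mutant over wildtype in batch 2 (vertical axis) against that in batch 1 (horizontal axis) for 5885 genes of at least 4 log2 CPM (grey) and the 54 genes called in batch 1 (red), with a dotted line of equal folds. All but Nlrp2 and Tubb2b among the called genes lie in the quadrants of equal sign, and most lie nearer 0 in batch 2.

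Because the assay primes on poly(A) tails and ERK is known to act on tail length in oocytes, the annotated 3′ ends of these genes were read for the signals of cleavage and cytoplasmic polyadenylation. The windows below are shown since they belong to the genes with the largest folds in each direction, and they come from GENCODE M21 on GRCm38, written 5′ to 3′ on the transcript strand with the hexamers AATAAA and ATTAAA in capitals. For 3 of the genes that rose, no such hexamer was found in the last 40 bases, and their windows end 4 bases before the transcript's end. They lie at chr11:6596711-6596740 (plus strand), chr4:126098551-126098580 (plus strand) and chr7:101911870-101911899 (plus strand).
Ccm2: taaaaacaagtttactgcaatgtgaataat
Lsm10: ctttttctcataaaaccaaacttggataca
Lamtor1: aaagaaagtatattcatttgtgttgctggt
Both Fxr2 and Pabpc1l, which rose, held a hexamer, at chr11:69653260-69653289 (plus strand) and chr2:164050499-164050528 (plus strand).
Fxr2: tacagtatttaaaaagagAATAAAaaaatc
Pabpc1l: gatcattttgctttatatATTAAAaaatgc
The genes that fell held a hexamer in all 7 cases, of which 4 are written here, at chr7:19580613-19580642 (plus strand), chr9:107545660-107545689 (plus strand), chr4:47469841-47469870 (minus strand) and chr9:21354987-21355016 (plus strand).
Zfp296: tagtcttttctctgtgtgAATAAAccatct
Nprl2: gtgagactcggttttgtaAATAAAgttatg
Alg2: attcacctgtaagaatatAATAAAtatctg
Slc44a2: attgcattccggccagttAATAAAgtgcct

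Over all genes with an annotated coding transcript, AATAAA or ATTAAA stood in the last 40 bases of 64.2% of 274 genes with every mutant egg above and of 84.4% of the genes with every mutant egg below, beside 76.1% of the 12299 tested genes. AATAAA alone was found in 47.1%, 65.1% and 61.8% of these sets. The letters TTTTAT or TTTTAAT, forms of the cytoplasmic polyadenylation element, which can overlap a hexamer, stood in the last 100 bases of 14.2% of genes above, 24.8% of genes below and 19.2% of all tested. Only the transcript strand was searched, with 1 transcript per gene, and the ends are those of the annotation, which may not be the ends used in eggs. These shares are descriptions of the annotated letters, without a test.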

How the data were processed

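Poly(A)-primed, strand-free Smart-seq2 libraries of 107 single mouse eggs were deposited as 1 table of whole-number counts for 21564 genes. For these counts made by the authors, the submitters' processing notes name STAR, HTSeq and GRCm38 (mm10), with no version or role. The values are raw counts with no molecular identifiers, so the intervals and floors printed cover counting error only. Column names matched 1 library name each, and batch, plate and genotype come from the labels, the library names and the deposited egg table.

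Eggs cannot be tied to animals, so counts were summed over the eggs of M1, M2, M3 and wildtype, and the 4 sums were fitted with edgeR 4.0.16 in R 4.3.3. The fit used TMM scaling, a minimum count of 10, the quasi-likelihood test and Benjamini-Hochberg adjustment with a threshold of 0.05. All adjusted p-values are from edgeR over all genes tested, with 2 residual degrees of freedom, and measure only the spread between sums, which may be technical. Standard errors are the fold divided by the root of the F statistic. Levels of single eggs are TMM-scaled CPM unless called raw, and whether eggs of both genotypes overlap is a description. Batch 2 folds and the difference between batches came from 1 fit of 9 sums of both batches with 4 residual degrees of freedom. The sums were wildtype, M1, M2 and M3 of each batch, and 1 sum of 17 activated wildtype eggs of batch 2. The activated sum had its own mean and entered no fold, but it shared the filter and the scaling.

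The named genes were those called with a fold of at least 2, no overlap between eggs and the same sign on plate A: 10 in each direction at 4 log2 CPM or more, 8 in each direction at 0 to 4, and up to 3 called members or the most abundant member of each list. Only 7 and 1 of these places could be filled for lower and for low-abundance genes. All 398 genes without overlap had the same sign on plate A, so that condition removed none. Predicted genes were left out. Other genes named were chosen after their values were seen. A few called genes are not reported here. The eggs, the 32 gene lists (1427 of 1446 entries found) and the tests were chosen with earlier results of these data known.

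Positions, strands and 3′ end sequences are from GENCODE M21 on GRCm38, in which 88.9% of the symbols were found. Alternatives changed the scaling, filter, test (DESeq2 1.42.0, limma 3.58.1), depth, plates, sums or eggs used. The scripts were checked on simulated counts, in which the 4-sum test called 7 of 100 genes changed 2-fold and 85 of 100 changed 4-fold.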

Additional observations from a re-analysis of the deposited data

Results flagged for a closer look

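A search for single eggs far from the rest of their genotype was made over 100 sets of values, the named genes in mutant and in wildtype eggs and the total counts. It singled out 11 values, whereas chance singles out about 1 in 20.

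Among mutant eggs, the library labelled M1 egg 6 stood apart in 3 genes. It held 82.2 CPM of Zfp296, against 10.7 to 41.5 CPM in the other mutant eggs. It held 14 CPM of Mos, against 0.250 to 4.49 CPM in the other mutant eggs, and 428 CPM of Serpine2, a protease inhibitor among the granulosa markers, against 137 to 272 CPM. In M1 egg 7, Egr1 reached 1053 CPM, with the other mutant eggs at 50.4 to 539 CPM. M1 egg 9 held 108.8 CPM of Henmt1, the others 39.8 to 59.3 CPM, and 236 CPM of Pramel13, a member of a gene family active in oocytes, the others 64.8 to 140.2 CPM.

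Among wildtype eggs, all 5 such values belonged to egg 1, the shallowest, with 2609358 counts against 7837230 to 9132471 in the others. It held 45.8 CPM of Samd10, against 22.95 to 28.7 CPM in the other wildtype eggs, and 269 CPM of Nprl2, against 93.6 to 119 CPM. It was low for Alg2, at 83.0 CPM against 137.6 to 151 CPM, and for Ppa1, at 338 CPM against 482 to 506 CPM. Without wildtype egg 1 the test called 95 genes, among them all 54 called with it.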

How the results depend on the processing

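The counts of calls moved with most settings, whereas all 54 called genes kept their direction in each of 29 alternative fits and were called in 14 to 24 of them. Genes whose eggs do not overlap could hardly lose their direction when eggs were left out. As shares of the genes tested, 0.311% were called higher and 0.109% lower in mutant eggs. With the 9 sums of both batches these shares were 2.06% and 0.672%, with DESeq2 3.68% and 0.887%, with eggs thinned to equal depth 0.80% and 0.252%, with a filter at 100 counts 1.44% and 0.415%, with limma voom 0.98% and 0.443%, with no filter 1.70% and 0.671%, and without the library labelled M1 egg 6 1.197% and 0.531%. They were 0% and 0% with sums divided by plate and when a fold of at least 2 was tested, and 0.0179% and 0% with the plate A eggs alone. At an unadjusted p under 0.05 edgeR had 747 genes with sums divided by plate, 571 against a fold of 2 and 365 on plate A. Leaving out 1 egg or 1 mutant sum gave 0% (M1 egg 7, M2 sum) to 1.197% (M1 egg 6) higher and 0% (M1 egg 7, M2 sum) to 0.584% (M1 sum) lower. At an unadjusted p under 0.05 edgeR had 1280 genes without M1 egg 7 and 1279 without the M2 sum. The number of genes called fell to 23 without M1 egg 8, to 20 without M1 egg 9 or M3 egg 1, and was 95 without wildtype egg 1, 83 without wildtype egg 4, 192 without the M1 sum and 150 without M3 egg 3. Without wildtype egg 3, 0.709% were called higher and 0.249% lower. Without the M3 sum 6 genes were called lower, and without M2 egg 2 25 were called higher.

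Genes with every mutant egg above every wildtype egg, 2.21%, were 12.4% on plate A, and those below, 0.887%, were 7.55% on plate A, 1.55% without M1 egg 6 and 0.404% with no scaling beyond totals, the last tried after seeing the data. Leaving out eggs or sums gave 2.30% to 4.79% above and 0.908% to 3.27% below, shares that fewer eggs raise by construction. The shares below also moved without the M3 sum (1.41%), wildtype egg 1 (1.67%) and wildtype egg 3 (1.57%). The difference between batches gave 0.788% with DESeq2, 0.157% with no filter and 0% in the other alternatives, with 903 to 1728 genes at an unadjusted p under 0.05 as sums were left out. Of the 54 called genes, 52 had the same sign in batch 2. That number was 47 without 9 wildtype eggs of batch 2 in which the top 50 genes held over 35% of counts, tried after seeing the data. It was 48 without the M2 sum of batch 2 and 53 without its M3 sum.

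Among uncalled genes, the log2 fold changed sign on plate A for Mos (0.316), Egr1 (-0.396), Marf1 (-0.394), Ski (0.209), Ncoa3 (-0.00455), Atg5 (0.0246) and Serpine2 (0.0949). With eggs thinned it did so for Ski (0.0406) and Zcchc8 (0.00367), and with sums divided by plate for Marf1 (-0.0318) and Ski (0.0179). With eggs or sums left out, the fold ran from -0.19 to 0.0126 for Atg5, -0.15 to 0.45 for Egr1, -0.10 to 0.12 for Marf1, -0.28 to 0.0555 for Nf2, -0.21 to 0.0867 for Ski, -0.26 to 0.0186 for Ythdf3 and -0.32 to 0.12 for Zcchc8. The cause of these moves was not tested.

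No paired analysis was possible because each group enters the test as 1 sum of its eggs and the sums carry no replicate number. Limits of the design are the lone wildtype sum, eggs with no animal or culture named, 2 of 9 mutant eggs on the plate of the wildtype eggs, and 1 shallow wildtype egg, in which a gene under 1.15 CPM may not be detected. In the second batch no plate held both genotypes.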

Other observations

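Other called genes, not described above, were Bag4, Atmin, Eef1e1, Lrrc59, Sh3gl1, Mpzl1 and Foxred2. Bag4, a cochaperone of HSP70, held 108.9 to 534 CPM in mutant eggs (median 253) and 32.3 to 59.2 CPM in wildtype eggs (median 38.6), a log2 fold of 2.57 ± 0.36 (SE) (edgeR adjusted p = 0.0226). Atmin, a cofactor of the ATM kinase and transcription factor, held 86.9 to 200.2 CPM in mutant eggs (median 146) and 19.13 to 32.2 CPM in wildtype eggs (median 29.98), a log2 fold of 2.30 ± 0.34 (SE) (edgeR adjusted p = 0.0237). Both genes also rose in the second batch, by 1.68 and 1.20 in log2 (edgeR adjusted p = 0.0102 and 0.0399).

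Eef1e1, a scaffold protein of the aminoacyl-tRNA synthetase complex, held 10.1 to 61.9 CPM in mutant and 2.87 to 10.3 in wildtype eggs, an overlap of the genotypes, with a log2 fold of 2.85 (edgeR adjusted p = 0.042). Lrrc59, a ribosome-binding protein of the endoplasmic reticulum, Sh3gl1, an endophilin of endocytosis, and Mpzl1, a cell-surface protein, rose without overlap, by 2.19, 2.67 and 1.96 in log2 (edgeR adjusted p = 0.0375, 0.0226 and 0.0486). Exons of Lrrc59, Sh3gl1 and Bag4 overlap a gene on the other strand. Foxred2, an oxidoreductase of endoplasmic reticulum degradation, fell, at 8.96 to 35.9 CPM in mutant and 31.4 to 147 in wildtype eggs (log2 fold -1.81, edgeR adjusted p = 0.0463), and its batch 2 fold had the same sign at -1.45 (edgeR adjusted p = 0.0223). Of these 7 genes, Sh3gl1 was not called in batch 2 (log2 fold 1.14, edgeR adjusted p = 0.067).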
